A study of Caenorhabditis elegans with 6 samples.

Results

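The hsp-16 genes of *Caenorhabditis elegans* encode small heat shock proteins. They were matched here by gene identifier and name, with earlier results of these data known, as the paired hsp-16 genes of 2 loci on chromosome V: hsp-16.1, hsp-16.48, hsp-16.11, hsp-16.49, hsp-16.2 and hsp-16.41. All 6 were listed among the 31180 genes of the deposited table, of which 18768 are annotated as protein-coding genes (PCGs). RNA was sequenced from whole N2 wild-type animals at the last larval stage, L4. The HS group was moved to 35°C for 4 h and the CTRL group was kept at 20°C, with 3 libraries in each. No transgene or mutation is named for either group.

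Small heat shock proteins are chaperones that bind unfolding proteins without using ATP and hold them in a state from which ATP-dependent chaperones can refold them. They share an α-crystallin domain and assemble into large oligomers. In *C. elegans* the hsp-16 genes are textbook targets of the heat shock factor HSF-1, and reporters driven by the hsp-16.2 promoter are widely used as readouts of heat stress. The family has an hsp-16.1 type (hsp-16.1, hsp-16.11 and hsp-16.2) and an hsp-16.48 type (hsp-16.48, hsp-16.49 and hsp-16.41), and each gene of the first type lies head to head with a gene of the second.

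The value used for each gene is the authors' mean normalized count, in which read counts were divided by a scaling factor for each library and averaged over the 3 HS and 3 CTRL libraries together. The table gives no value for a single library, and the authors' own HS against CTRL comparison in the same table was not used here. The levels below are therefore pooled over both temperatures. They carry no replicate error and no test, and they say nothing about how far any gene moved with heat. Because the mean weights the groups equally, the mean of either group alone can be no more than double the pooled value, for example 64695 normalized counts for hsp-16.41 and 2339 for hsp-16.49. Library depths are not in the table. The lowest value listed for any gene was 0.114 normalized counts, and every member lay at least 10287-fold above it. The reads behind a member in either group are not known.

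The members share one gene structure (WBcel235 build, Ensembl release 115). Each has 2 exons and 1 intron of 46 to 58 bases, against a median of 66 bases over 101660 introns of PCGs, of which 47.0% are no longer than 58 bases. Only 9.54% of PCGs have 2 exons. In all genes of the hsp-16.1 type the coding sequence is split into 126 and 312 bases, stop codon included, for a protein of 145 residues. In all genes of the hsp-16.48 type it is split into 138 and 294 bases, for a protein of 143 residues. Coding length thus differs by only 6 bases across the family, and per coding length the members keep almost the proportions of their counts.

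At the first locus, hsp-16.2 (WBGene00002016) occupies chromosome V, 1804334 to 1804957, on the minus strand. Its partner hsp-16.41 (WBGene00002018) occupies 1805178 to 1805875 on the plus strand. The second locus lies 7281417 bases further along and holds 4 members within 3312 bases. In order, these are hsp-16.1 (WBGene00002015; 9087293 to 9087782, minus strand), hsp-16.48 (WBGene00002019; 9088131 to 9088617, plus strand), hsp-16.49 (WBGene00002020; 9089280 to 9089766, minus strand) and hsp-16.11 (WBGene00002017; 9090077 to 9090604, plus strand). Its left and right sides mirror each other as an inverted repeat, and the start codons of the head-to-head partners are 348 bases apart in both. At the hsp-16.2 locus the corresponding distance is 346 bases. Measured between annotated gene ends, the gaps were 348 bases for hsp-16.1 and hsp-16.48, 310 bases for hsp-16.11 and hsp-16.49, and 220 bases between hsp-16.2 and its partner. Among 4087 head-to-head neighbours of PCGs in this annotation the median gap was 1397 bases, and 14.6%, 12.7% and 7.19% of them had a gap as short as these.

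**Figure D1:**
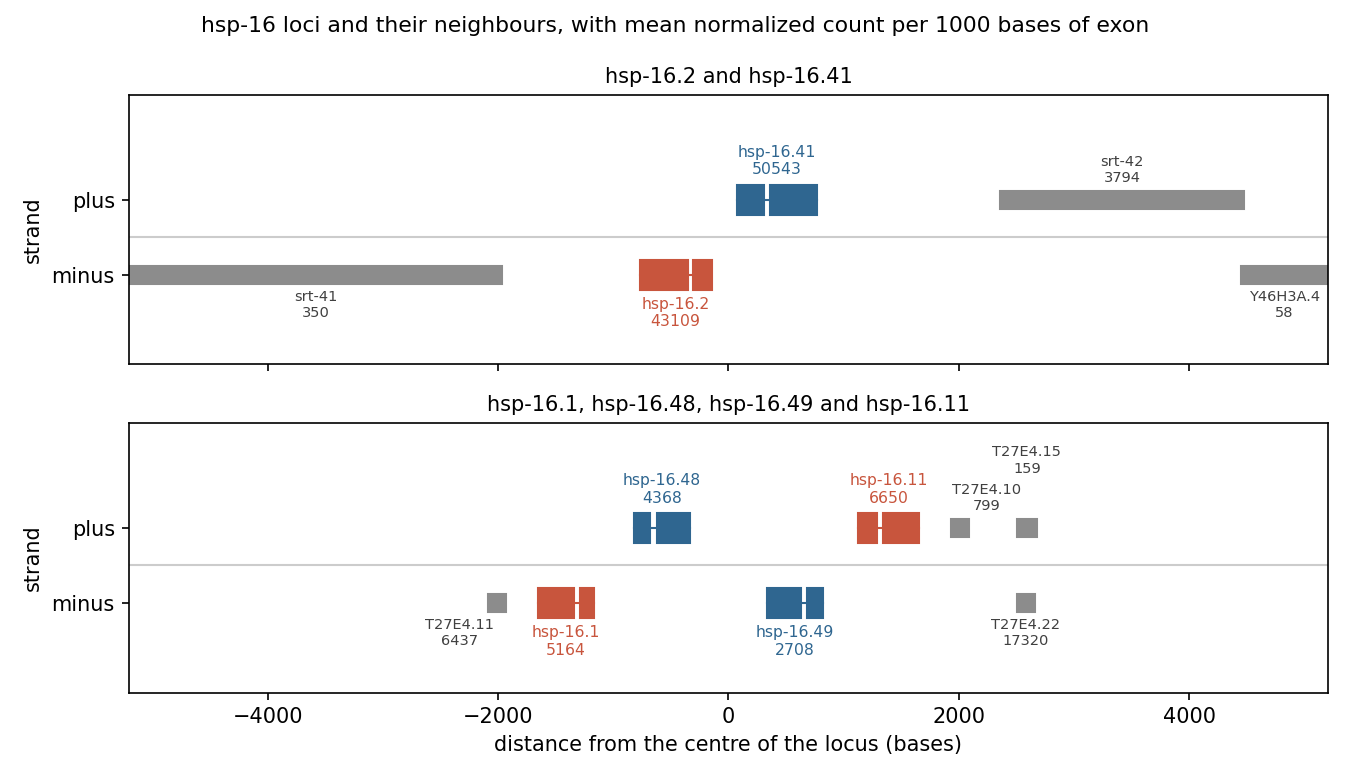
Maps of the hsp-16 loci by distance in bases from the centre of each locus, with genes on the plus strand above and genes on the minus strand below the line. Red and blue boxes are exons of hsp-16.1 type and hsp-16.48 type members, grey boxes are neighbouring genes from start to end (those reaching the edge are cut there), and the number under each name is its mean normalized count per 1000 bases of merged exons, from 2708 for hsp-16.49 to 50543 for hsp-16.41 among the members.

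The duplicated copies of the second locus bear on how far its values can be split. The genes hsp-16.1 and hsp-16.11 are known to encode the same protein, as are hsp-16.48 and hsp-16.49, and the Ensembl annotation gives each of these pairs a single symbol (hsp-16.1 and hsp-16.48). Reads that match both copies cannot be assigned to one of them, and how such reads were treated is not given in the sources used here. The split of counts between hsp-16.1 and hsp-16.11 and between hsp-16.48 and hsp-16.49 is uncertain for this reason. A loss of shared reads would also lower all 4 values relative to hsp-16.2 and hsp-16.41. How many reads were shared was not tested, since no genome sequence was used here.

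Untranslated regions (UTRs) are annotated unevenly. The annotation gives hsp-16.2 a 5′ UTR of 33 bases and a 3′ UTR of 107 bases, and hsp-16.41 a 5′ UTR of 93 bases and a 3′ UTR of 115 bases. hsp-16.11 has a 5′ UTR of 38 bases only, and hsp-16.1, hsp-16.48 and hsp-16.49 have none. The counts were made on Ensembl release 88, whose UTRs were not examined, so which UTR reads were counted is not known. Members are therefore compared with each other per 1000 bases of merged exons and again per 1000 bases of coding sequence. Ranks by length and comparisons with other genes per length use merged exons only, so uneven UTRs may affect them.

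The first locus held most of the family's signal. hsp-16.41 had the highest mean normalized count, 32347, and hsp-16.2 followed with 24917. Together they made up 87.1% of the family's 65748 normalized counts. The remaining 12.9% was spread over the 4 genes of the inverted repeat, with 3166 normalized counts for hsp-16.11, 2262 for hsp-16.1, 1887 for hsp-16.48 and 1170 for hsp-16.49. The family as a whole took 0.419% of all normalized counts on PCGs, of which hsp-16.41 alone took 0.206%.

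Per 1000 bases of merged exons, the order of the members was the same. hsp-16.41 stood at 50543 normalized counts per 1000 bases, hsp-16.2 at 43109, hsp-16.11 at 6650, hsp-16.1 at 5164, hsp-16.48 at 4368 and hsp-16.49 at 2708. The lower member of the first locus, hsp-16.2, lay 6.48-fold above the highest of the inverted repeat, hsp-16.11. Within the inverted repeat the highest and lowest differed by 2.46-fold. Over the whole family the range was 18.7-fold per length of merged exons and 27.7-fold per coding length. With no library values, it cannot be said which neighbours in this order differ beyond their spread.

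All members lay far above the typical gene. The median PCG stood at 97.3 normalized counts per 1000 bases, which the lowest member, hsp-16.49, exceeded 27.8-fold and the highest, hsp-16.41, 519-fold. Among the 18768 PCGs, hsp-16.41 took rank 20 on this scale and hsp-16.2 rank 37. The members of the inverted repeat took ranks 284 (hsp-16.11), 368 (hsp-16.1), 435 (hsp-16.48) and 673 (hsp-16.49), so that each member was within the top 3.59% of PCGs. By normalized counts not divided by length, the ranks were 39 for hsp-16.41, 66 for hsp-16.2, 864 for hsp-16.11, 1267 for hsp-16.1, 1629 for hsp-16.48 and 2643 for hsp-16.49. These short genes collect fewer reads per transcript than a gene of usual length, and each ranked higher once length was divided out.

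**Figure D2:**
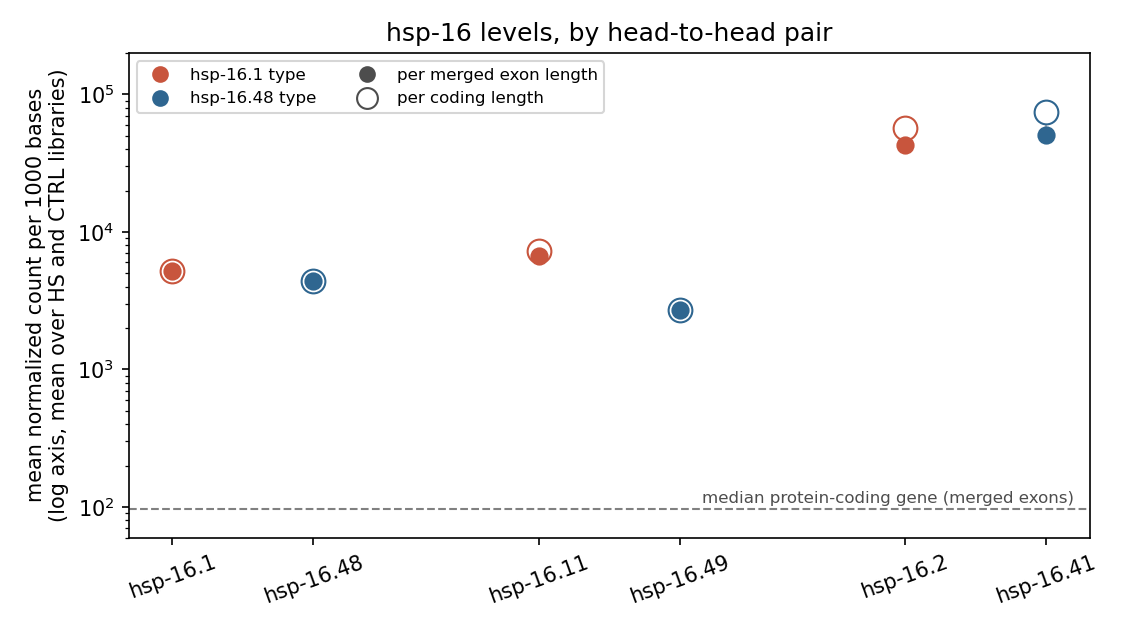
Mean normalized count per 1000 bases (log axis, pooled over the HS and CTRL libraries) for each hsp-16 gene, placed beside its head-to-head partner, with hsp-16.1 type genes in red and hsp-16.48 type genes in blue. Filled points are per merged exon length, open points per coding length, and the dashed line is the median PCG at 97.3; the hsp-16.2 and hsp-16.41 pair lies above the other 4 genes on both scales.

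Genes of one type have equal coding lengths, so within a type the folds per coding length are those of the counts. Folds between the loci carry the limits given above. The counts may hold UTR reads, and a loss of shared reads would lower the inverted repeat. In the hsp-16.1 type, hsp-16.2 was 8.35-fold above hsp-16.1 and 6.48-fold above hsp-16.11 per merged exon length, and 11.02-fold and 7.87-fold above them per coding length. In the hsp-16.48 type, hsp-16.41 was 11.6-fold above hsp-16.48 and 18.7-fold above hsp-16.49 per merged exon length, or 17.1-fold and 27.7-fold per coding length. The copies inside the inverted repeat were much closer to each other. hsp-16.11 was 1.29-fold above hsp-16.1 per merged exon length and 1.40-fold per coding length, and hsp-16.48 was 1.61-fold above hsp-16.49 on either scale.

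Partners that share a short stretch between their starts had levels of the same order. Per merged exon length, hsp-16.1 was 1.18-fold above hsp-16.48, and hsp-16.41 was 1.17-fold above hsp-16.2. The pair of hsp-16.11 and hsp-16.49 was less even, with hsp-16.11 2.46-fold higher. Beside these stand 320 other head-to-head neighbours with a gap of at most 348 bases and at least 100 normalized counts for each gene, whose median fold between partners was 1.96. A fold at least as large was found in 86.3% of these for the hsp-16.1 and hsp-16.48 pair, in 86.6% for the hsp-16.2 and hsp-16.41 pair and in 37.8% for the hsp-16.11 and hsp-16.49 pair. The partner on top was the hsp-16.1 type gene on both sides of the inverted repeat and the hsp-16.48 type gene at the first locus. Summed by pair, hsp-16.1 with hsp-16.48 and hsp-16.11 with hsp-16.49 came to 4149 and 4335 normalized counts, and hsp-16.2 with hsp-16.41 to 57264. Reads shared between the copies fall on both sides of the repeat, so the sums of its sides and the folds within them rest on the uncertain split described above.

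Other small heat shock proteins of the worm were lower. A list of 12 such genes had a median of 445 normalized counts per 1000 bases, against 5907 for the 6 hsp-16 genes. All 12 lay below hsp-16.2 and hsp-16.41, and 10 of them lay below every hsp-16 gene. The exceptions were sip-1 at 4466, close to hsp-16.48 at 4368, and hsp-17 at 2726, which was nearly level with hsp-16.49. sip-1 is known for its expression in oocytes and embryos. Next came hsp-25 at 1778 and hsp-12.2 at 1550. hsp-12.6, a known target of the insulin pathway factor DAF-16, stood at 221. The lowest were F08H9.4 at 63.3 and F08H9.3 at 4.62. In normalized counts, the hsp-16 genes made up 87.1% of the sum over all 18 small heat shock protein genes.

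The large ATP-dependent chaperones were in the range of the family. Of 10 such genes, only hsp-90, the cytosolic HSP90, lay above hsp-16.41 per merged exon length, at 51932 normalized counts per 1000 bases. These genes were nearly level, with hsp-16.41 at 0.973 times hsp-90. The heat-inducible HSP70 gene hsp-70 stood at 31942 and the constitutive HSP70 gene hsp-1 at 30102, both below hsp-16.2. The endoplasmic reticulum HSP70 genes hsp-4 and hsp-3 stood at 14001 and 6715, and hsp-110, which encodes a nucleotide exchange factor for HSP70, at 12002. F44E5.4 and F44E5.5, a further HSP70 pair that like the hsp-16 genes lies head to head, stood at 7228 and 5955, close to hsp-16.11. Reads shared between F44E5.4 and F44E5.5 were not examined. The mitochondrial chaperones hsp-60 and hsp-6 stood at 6139 and 4686. Per merged exon length all 10 lay above hsp-16.49 and hsp-16.48, although hsp-6 was close to hsp-16.48 at 4368. The listed genes were not placed on other length scales, where such close orders may differ.

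Regulators of the response stood below the hsp-16 genes. hsf-1, which encodes HSF-1, stood at 330 normalized counts per 1000 bases, so hsp-16.41 was 153-fold above it and hsp-16.49 was 8.19-fold above it. hsb-1, which encodes a protein that binds and restrains HSF-1, stood at 906, and hsp-16.49 was 2.99-fold above it. ddl-1 and ddl-2, whose products are known from worms to hold HSF-1 in an inactive complex, stood at 200.1 and 61.0. All 4 were below every hsp-16 gene.

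**Figure D3:**
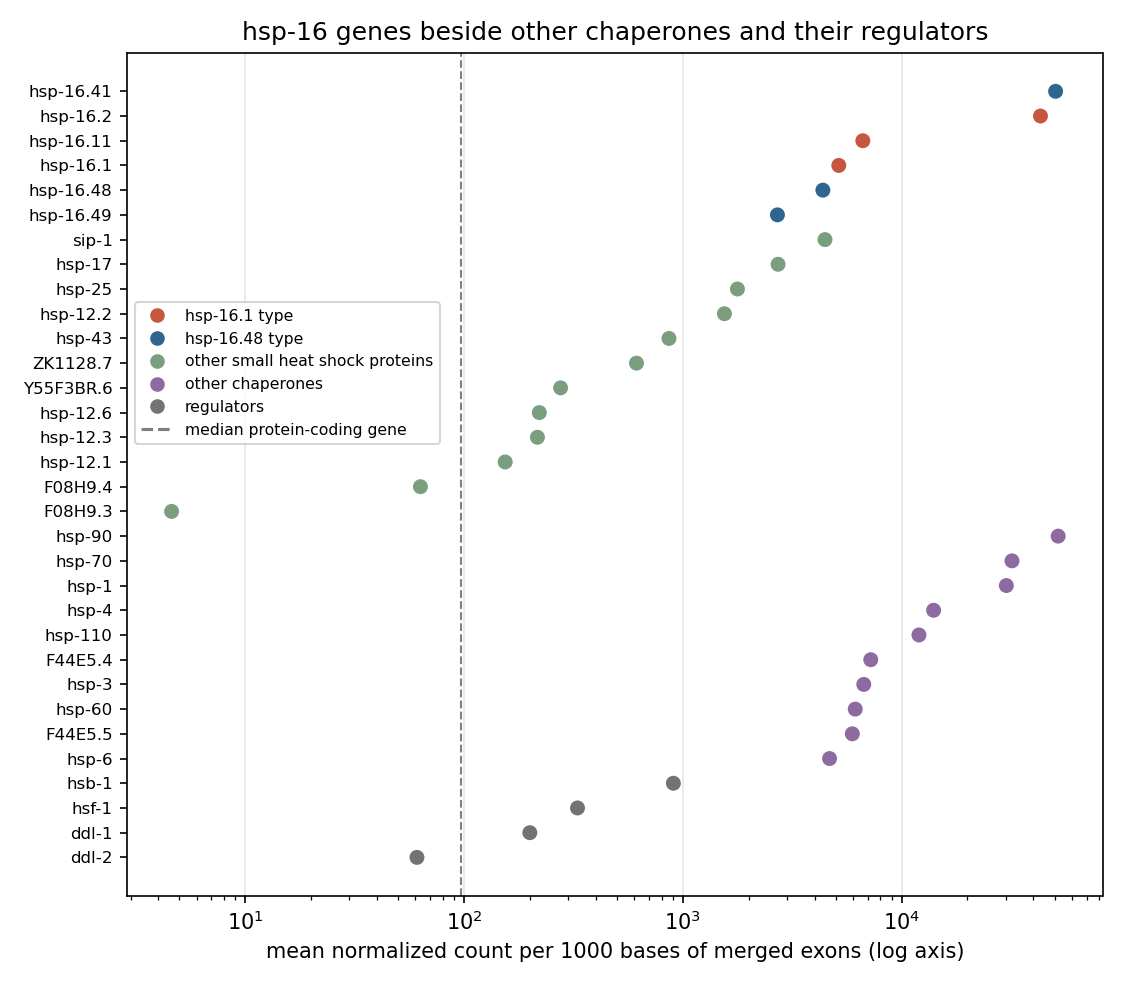
Mean normalized count per 1000 bases of merged exons (log axis, pooled over the HS and CTRL libraries) for the hsp-16 genes and for listed genes of 3 groups, each ordered by level, with the median PCG as a dashed line. hsp-16.41 and hsp-16.2 lie at 50543 and 43109, beside hsp-90 at 51932, whereas the other small heat shock proteins reach at most 4466 (sip-1).

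Genes next to the loci on the same strand were read beside the members, since transcripts that run past the end of a gene can add counts to the gene behind it. srt-42 (WBGene00021599) and srt-41 (WBGene00018114) belong to a chemoreceptor family and start 1584 bases behind hsp-16.41 and 1190 bases behind hsp-16.2. They stood at 3794 and 350 normalized counts per 1000 bases, or 7.51% and 0.813% of the member in front of them. The nearest PCGs on the opposite strand, F36H9.10 and Y46H3A.4, stood at 8.07 and 57.6. Read positions were not used, and the part that longer hsp-16 transcripts have in these values was not tested.

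The inverted repeat is flanked by mirrored genes annotated as small nuclear RNAs (snRNAs). T27E4.11 (WBGene00194993; chromosome V, 9086858 to 9087021, minus strand) lies behind hsp-16.1 and T27E4.10 (WBGene00044923; chromosome V, 9090876 to 9091039, plus strand) behind hsp-16.11. Each is 164 bases long, lies 271 bases behind its hsp-16 gene and is on that gene's strand. T27E4.11 had 1056 normalized counts and T27E4.10 had 131, a difference of 8.05-fold at equal length. Per 1000 bases they stood at 6437 and 799, or 125% and 12.0% of the hsp-16 gene in front of them. The part that longer hsp-16 transcripts have in these values was not tested. Among 103 snRNA genes listed, whose median was 238 normalized counts per 1000 bases, T27E4.11 and T27E4.10 took ranks 17 and 43 on that scale. Reads shared between these mirrored genes were not examined either, so the split between T27E4.11 and T27E4.10 is uncertain too. T27E4.22, an snRNA gene 848 bases behind hsp-16.11 on the opposite strand, stood at 17320 normalized counts per 1000 bases, while T27E4.15, an ncRNA gene that overlaps it on the strand of hsp-16.11, stood at 159. Whether strand was used in counting is not given in the sources used here, so counts of these overlapping genes are uncertain.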

How the data were processed

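Total RNA was depleted of rRNA and made into stranded libraries, which were sequenced as paired reads of 100 bases. The authors trimmed reads with fastq-mcf, used STAR for alignment to WBcel235 and featureCounts on Ensembl release 88 genes; versions are not given in the sources used here. The signal of each gene (baseMean) was deposited by the authors as the mean over 6 libraries of counts divided by DESeq2 size factors. It is not divided by length. The other 5 columns hold the authors' own comparison of HS with CTRL (fold change, its error, a test statistic and p-values) and were not used, so no test was run, whereas the plan had one for values of single libraries. rRNA genes took 46.9% of the summed signal.

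Members were matched by WormBase identifier, with symbols from the study's gene list that the RefSeq table of the same assembly gives at the same positions. Lengths, classes and neighbours came from Ensembl release 115, in which 217 listed genes have no position. hsp-90 is the gene also known as daf-21. The members and lists were chosen with earlier results of these data known. The genes named are the members, 3 lists of related genes, the 3 nearest genes on each side of each locus and the 3 PCGs next above and below each member in normalized counts. Alternatives were other length scales and other backgrounds for ranks and shares. Python 3.11.15, pandas 2.3.3, numpy 2.4.6 and matplotlib 3.10.9 were used, and the functions for lengths and head-to-head neighbours were tested on simulated data.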

Additional observations from a re-analysis of the deposited data

How the results depend on the processing

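A value was taken to have moved when it changed by over 1.5 times, since no replicate spread can be had. Of 40 alternatives run on 16 results, 34 stayed within that limit. The other 6 were the ranks of the members when counts were divided by length, a setting added after seeing the data, where every member ranked higher: hsp-16.41 at rank 20, hsp-16.2 at 37, hsp-16.11 at 284, hsp-16.1 at 368, hsp-16.48 at 435 and hsp-16.49 at 673. Many of the 34 could not have moved. Every member has over 100 normalized counts, so its rank among PCGs with at least 100 was fixed in advance. Merged exon and coding lengths are equal for hsp-16.1, hsp-16.48 and hsp-16.49, so their values on these scales were fixed too. More broadly, a change of length scale multiplies a value or ratio by a factor set by annotated lengths alone. Whether the 12 alternatives per length and those of the 3 pair ratios moved was thus set by the annotation, not the counts. Over the length scales, hsp-16.1 over hsp-16.48 ran from 1.18 to 1.20, hsp-16.11 over hsp-16.49 from 2.39 to 2.71 and hsp-16.2 over hsp-16.41 from 0.760 to 0.870. The 3 pair ratios are the results with a direction, and none of them turned. For hsp-16.1 and hsp-16.48 (438 and 432 bases of merged exons) the lengths differ too little for a turn. The same holds for hsp-16.11 and hsp-16.49 (476 and 432 bases). The family's share was 0.375% of all genes without rRNA genes. No paired analysis was possible because no values of single libraries were given. Leaving out replicates, count models, unique windows of exon sequence, protein identity and motifs of the promoters were planned and not run, for want of library values or of sequence here.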

Other observations

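Genes with nearly the same pooled normalized counts as a member are given here, although their lengths differ. The match is in the mean over HS and CTRL libraries together. It does not give the abundance of a member in either group. Next to hsp-16.41, at 32347 normalized counts, were rps-3 (33476), rps-9 (32786) and rps-8 (31304), which encode proteins of the small ribosomal subunit, the cuticle collagen gene col-129 (31975), and the chaperone genes hsp-110 (32429) and hsp-4 (31250). Per 1000 bases of merged exons, these ribosomal protein genes stood at 41792, 49008 and 43843, close to hsp-16.41 at 50543. Next to hsp-16.2, at 24917, were rpl-27 (25140) and rpl-21 (24777) of the large ribosomal subunit, pat-10 (24918), the body wall muscle troponin C, and 3 longer genes, bcf-1 (25132), vgln-1 (24769) and eel-1 (24697). Beside the members of the inverted repeat stood genes such as txdc-12.1 (3162) and col-155 (3159) for hsp-16.11, at 3166, and mbf-1 (2260) for hsp-16.1, at 2262.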
